A study of Homo sapiens with 2 samples.

Results

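The genes described here are 10 factors and targets of the integrated stress response: the nuclear protein gene NUPR1, the transcription factor genes ATF3, ATF4, ATF5 and DDIT3, the feedback genes TRIB3 and PPP1R15A, and CHAC1, ASNS and PSAT1, which encode enzymes. They were taken by symbol, each had 1 row, and they are 10 of 24991 distinct gene symbols in the table. They were chosen by their symbols with their FPKM values in both libraries already known, and both values define the set, so all that follows describes 1 pair of libraries and no test supports it. RNA was sequenced from PLC/PRF/5, an established human hepatocellular carcinoma line. The NFX1 library came from cells made to overexpress the zinc-finger transcription factor NFX1, and the vector library from cells carrying an empty vector. Both cultures were kept under hypoxia, and neither its oxygen level and duration nor the way NFX1 was expressed is given in the sources used here. Each group has 1 library, so there is no spread between replicates and no p-value across samples.

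In the integrated stress response, kinases that sense unfolded protein, lack of amino acids, lack of heme or viral RNA phosphorylate the initiation factor eIF2. General translation is then reduced, while the ATF4 mRNA is translated more, so ATF4 activity depends on translation as well as on its mRNA level. ATF4 binds DNA as a dimer with C/EBP and related factors and induces genes for amino acid supply, for further stress factors and for the phosphatase subunit that reverses the eIF2 mark. In liver cells the pathway responds to amino acid shortage, to stress of the endoplasmic reticulum and to impaired mitochondria.

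The deposited values are FPKM, fragments per kilobase of transcript scaled to sequencing depth. A change is the log2 of (NFX1 FPKM + 1) over (vector FPKM + 1). A gene was counted as expressed at FPKM of at least 1 in a library, which 11182 genes reached, all 10 stress response genes among them. Short single-exon receptor genes gave the worth of 1 fragment, from which depths of about 42.1 M fragments for the NFX1 library and 36.6 M for the vector library were estimated. NFX1 itself had 56.0 FPKM in the NFX1 library and 4.21 FPKM in the vector library. Of the hepatocyte and hepatoma markers, SERPINA1 (6807 and 5935 FPKM), KRT8 (1418 and 1140 FPKM), HNF4A (44.2 and 38.9 FPKM) and GPC3 (9.68 and 9.56 FPKM) were present in the NFX1 and the vector library, while albumin (ALB) had only 1.06 FPKM in the NFX1 library and 0.776 FPKM in the vector library. TTR was also low, with 1.96 FPKM in the NFX1 library and 1.38 FPKM in the vector library, and AFP had 7.73 and 7.48 FPKM. With a median change of 0.20, 10 of the 11 markers were higher in the NFX1 library, beside 52% of all expressed genes. That median was 0.07 with a trend on GC content, transcript length and expression, described later, subtracted. APOB was lower, with 38.6 FPKM in the NFX1 library and 44.5 FPKM in the vector library. Of 8 blood cell markers, PTPRC and CD3E were listed at 0 in both libraries and 4 passed 1 FPKM: HBA1 (13.1 FPKM in the NFX1 library and 8.72 FPKM in the vector library), HBA2 (6.03 and 3.63 FPKM), CD68 (52.6 and 48.9 FPKM) and LYZ (47.9 and 49.2 FPKM). The 8 summed to 120.2 FPKM in the NFX1 library and 110.7 FPKM in the vector library, and their part in the values of the 10 genes was not tested. None of 7 fibroblast and endothelial markers passed 1 FPKM. In bulk RNA, fewer cells expressing a gene and less RNA per cell cannot be told apart.

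By size of difference the 10 genes fell into 2 sets, a split made after their values were seen. The first 5, NUPR1, ATF5, TRIB3, CHAC1 and PPP1R15A, had values between 1.17 and 1.63 times as high in the NFX1 library as in the vector library. The other 5, ATF4, ATF3, DDIT3, ASNS and PSAT1, differed by less than 4% in either direction, so the pathway's central factor and its amino acid enzymes had nearly equal mRNA values. Only NUPR1 was at least 1.5-fold higher, which is 1 of the 10 genes, against 0.42% of the 11182 expressed genes, and none was at least 1.5-fold lower, against 0.215%. The median change of the 10 genes was 0.13, with 8 higher and 2 lower, beside a median of 0.01 over all expressed genes, of which 52% were higher. None was 2-fold higher, against 0.107% of all. Without NUPR1, left out after its value had been seen, the median of the other 9 was 0.05.

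**Figure D1:**
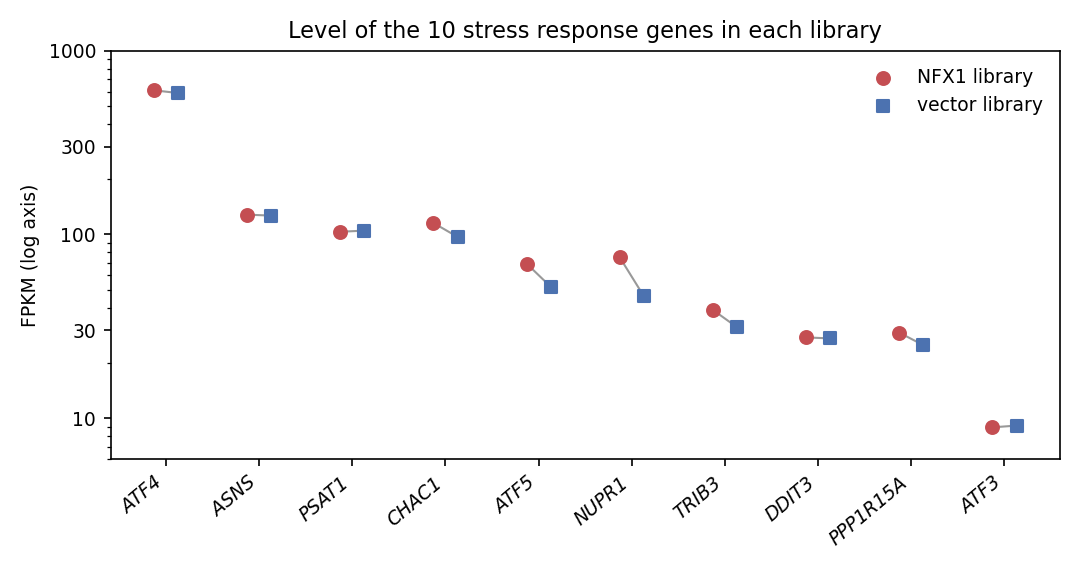
FPKM (log axis) of each of the 10 genes in the NFX1 library (red circles) and the vector library (blue squares), ordered by the vector value, 1 library each. ATF4 stands highest at 609 and 589 FPKM and ATF3 lowest at 8.91 and 9.11 FPKM, and the steepest line is that of NUPR1.

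NUPR1, a small basic nuclear protein induced by many stresses, had 75.1 FPKM in the NFX1 library and 46.1 FPKM in the vector library. The NFX1 value was 1.63 times the vector value, with an exact (Clopper-Pearson) 95% interval of 1.46 to 1.83. This interval rests on an estimated 872 fragments in the NFX1 library and 465 in the vector library and covers counting error only, not differences between cultures. Its change of 0.69 was number 29 from the top among 11182 genes, and number 10 among the 7710 that reached 5 FPKM in a library. Of 3961 genes that reached 20 FPKM in a library, 6 were at least 1.5-fold higher (0.151%), NUPR1 being 1 of them. The authors' deposited table listed for NUPR1 a log2 fold change of 0.71, p = 0.00505 and q = 0.999, from 1 library per group, and marked none of the 10 genes as significant.

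The NUPR1 row lies on chromosome 16 from 28548662 to 28550495 (hg19), and no other row lies in this interval. The gene is short, and the transcript used here has 550 bases with a GC content of 61.1%.

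For short transcripts FPKM depends on the fragment length that the authors' tool assumes. The receptor genes gave whole fragments when 274 bases were taken off each length in the NFX1 library and likewise 274 in the vector library, so this length was the same for both. Of the 976 expressed genes with transcripts under 1000 bases, 2.87% were at least 1.5-fold higher in the NFX1 library, against 0.42% of all. NUPR1L, the paralog of NUPR1, was listed at 0 in both libraries. Of 9 reported partners of NUPR1, 3 were higher and 6 lower (median -0.04), beside 52% higher of all expressed genes. None differed by 25% or more upward or by the same factor downward. The NF-kappa-B subunit RELB had 49.7 FPKM in the NFX1 library and 44.1 FPKM in the vector library. KPNA1, an importin that carries proteins into the nucleus, had a change of -0.14, and the acetyltransferase EP300 -0.13.

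ATF4, the factor at the centre of the response (chromosome 22, 39916564 to 39918691, hg19), had 609 FPKM in the NFX1 library and 589 FPKM in the vector library. This put it above 98.5% of expressed genes in the NFX1 library and above 98.6% in the vector library. The fold was 1.04, with a counting interval of 1.02 to 1.05 that leaves out 1. That says little by itself, because the counting intervals of 57.2% of 10953 genes leave out 1. Scaling by the upper quartile turned the change of ATF4, 0.05 as deposited, to -0.02. The change was -0.12 once the trend on GC content, transcript length and expression, described later, was subtracted.

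ATF5, a factor of the same family that is also controlled by translation and takes part in the mitochondrial unfolded protein response, had 69.5 FPKM in the NFX1 library and 51.9 FPKM in the vector library. The 1.34-fold difference had a counting interval of 1.28 to 1.40, and the change of 0.41 was the second highest of the 10. The row of ATF5 spans 50392913 to 50437193 on chromosome 19 (hg19). A row for IL4I1 and NUP62 covers the same interval, with 29.7 FPKM in the NFX1 library and 25.8 FPKM in the vector library, a change of 0.20. Whether the counting used strand is not given in the sources used here, so reads of ATF5 and of these genes may be mixed. ATF4 was 8.77 times as high as ATF5 in the NFX1 library and 11.3 times as high in the vector library, per length.

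ATF3, a stress-induced factor that acts mostly as a repressor (chromosome 1, 212738676 to 212794119), was the lowest of the 10, with 8.91 FPKM in the NFX1 library and 9.11 FPKM in the vector library. Its fold was 0.978, with counting bounds of 0.870 and 1.10. DDIT3, which encodes CHOP, a factor tied to cell death under lasting stress, had 27.5 FPKM in the NFX1 library and 27.2 FPKM in the vector library. Its fold was 1.01, with an interval of 0.916 to 1.12. Both intervals cover 1, so a difference within them is not detectable at this depth. The row of DDIT3 (chromosome 12, 57881736 to 57914300) shares its interval with the methionyl-tRNA synthetase gene MARS, at 163 FPKM in the NFX1 library and 151 FPKM in the vector library, so the value of DDIT3 is uncertain in the same way as that of ATF5.

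TRIB3, a pseudokinase that is induced by ATF4 and CHOP and restrains them (chromosome 20, 361273 to 378203), had 38.8 FPKM in the NFX1 library and 31.2 FPKM in the vector library, a fold of 1.24 (counting interval 1.17 to 1.32). PPP1R15A, also called GADD34, directs a phosphatase to eIF2 and so ends the response. It had 29.2 FPKM in the NFX1 library and 25.0 FPKM in the vector library, a fold of 1.17 with an interval of 1.10 to 1.24 (chromosome 19, 49375649 to 49379319). Its constitutive counterpart PPP1R15B differed in the other direction as deposited, with 9.05 FPKM in the NFX1 library and 10.2 FPKM in the vector library. With the trend subtracted both were near 0, PPP1R15A at 0.06 and PPP1R15B at -0.02. CHAC1, which breaks down glutathione (chromosome 15, 41245636 to 41248717), had 116 FPKM in the NFX1 library and 97.0 FPKM in the vector library, a fold of 1.19 with an interval of 1.14 to 1.24. These 3 targets thus had higher values in the NFX1 library, at intervals above 1, as did NUPR1, ATF5 and ATF4. That makes 6 of the 10 genes, against 33% of 10953 genes. The 2 shares are not like for like, because an interval narrows with more fragments and the changes follow GC content. The median GC content was 56.9% for the 10 genes and 50.3% for all expressed genes. No share at like depth or GC content was taken, and ATF4, among the 6, was at -0.12 with the trend subtracted.

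ASNS makes asparagine (chromosome 7, 97481429 to 97501854) and had 128 FPKM in the NFX1 library and 127 FPKM in the vector library, a fold of 1.01 with an interval of 0.981 to 1.04. PSAT1, an enzyme of serine synthesis (chromosome 9, 80911991 to 80945009), had 103 FPKM in the NFX1 library and 105 FPKM in the vector library, a fold of 0.986 with an interval of 0.952 to 1.02. Both are well-known ATF4 targets, and neither interval leaves out 1.

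By level, the order in the NFX1 library was ATF4, ASNS, CHAC1, PSAT1, NUPR1, ATF5, TRIB3, PPP1R15A, DDIT3 and ATF3. In the vector library 3 neighbouring pairs stood the other way round: PSAT1 above CHAC1, ATF5 above NUPR1 and DDIT3 above PPP1R15A. With no replicates, whether any of these neighbours differ beyond the spread between cultures is unknown.

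**Figure D2:**
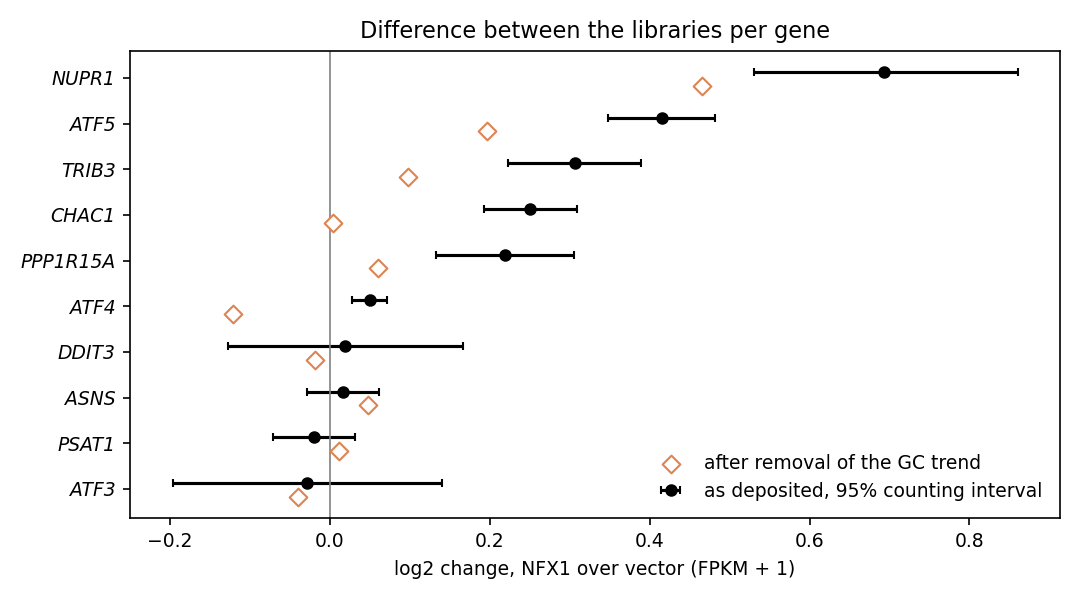
Log2 change (NFX1 over vector, FPKM + 1) of each of the 10 genes as deposited (black points, bars are 95% exact counting intervals). Open diamonds show it with the trend on GC content, length and expression (GC trend in the key) subtracted. NUPR1 at 0.69 and ATF5 at 0.41 lead as deposited, and with the trend subtracted NUPR1 is at 0.46 and ATF5 at 0.20 while the other 8 lie between -0.12 and 0.10.

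The split between the 5 higher and the 5 level genes followed base composition. Transcripts of TRIB3, CHAC1, ATF5, NUPR1 and PPP1R15A had GC contents of 62.0%, 61.8%, 61.2%, 61.1% and 58.8%, the highest 5 of the 10. The other 5 ran from 54.9% for ATF4 through 50.9% for ATF3 and 50.1% for DDIT3 to 44.1% for PSAT1 and 43.9% for ASNS. Across the 10 genes, which share both libraries and are not replicates, Spearman's rho between GC content and change was 0.81. The same slope ran through the whole table, with a median change of 0.20 in the fifth of genes with the highest GC content and -0.11 in the fifth with the lowest. Of the 2196 genes in that top group, to which 4 of the 10 genes belong, 0.956% were at least 1.5-fold higher.

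A trend on GC content, transcript length and expression was therefore fitted on the expressed genes whose change was within 2-fold, where it took 42.0% of the variance, and subtracted from all 10980 genes with a length and a GC content. The median of the 10 genes was then 0.03, beside 0.00 over all genes, with 7 higher and 3 lower, beside 50.6% higher of all. NUPR1 kept a change of 0.46, number 61 of 10980 genes, and was no longer past 1.5-fold, as 0.237% of those genes were. It was the only 1 of the 10 that stayed at least 25% higher, against 1.84% of all genes. The changes of the others became 0.20 for ATF5, 0.10 for TRIB3, 0.06 for PPP1R15A, 0.05 for ASNS, 0.01 for PSAT1 and 0.00 for CHAC1. ATF4, at -0.12, ATF3, at -0.04, and DDIT3, at -0.02, were on the low side. The fit takes GC content, length and expression together, so it gives no separate part for base composition. The part of each in the changes of the 5 higher genes was not tested.

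**Figure D3:**
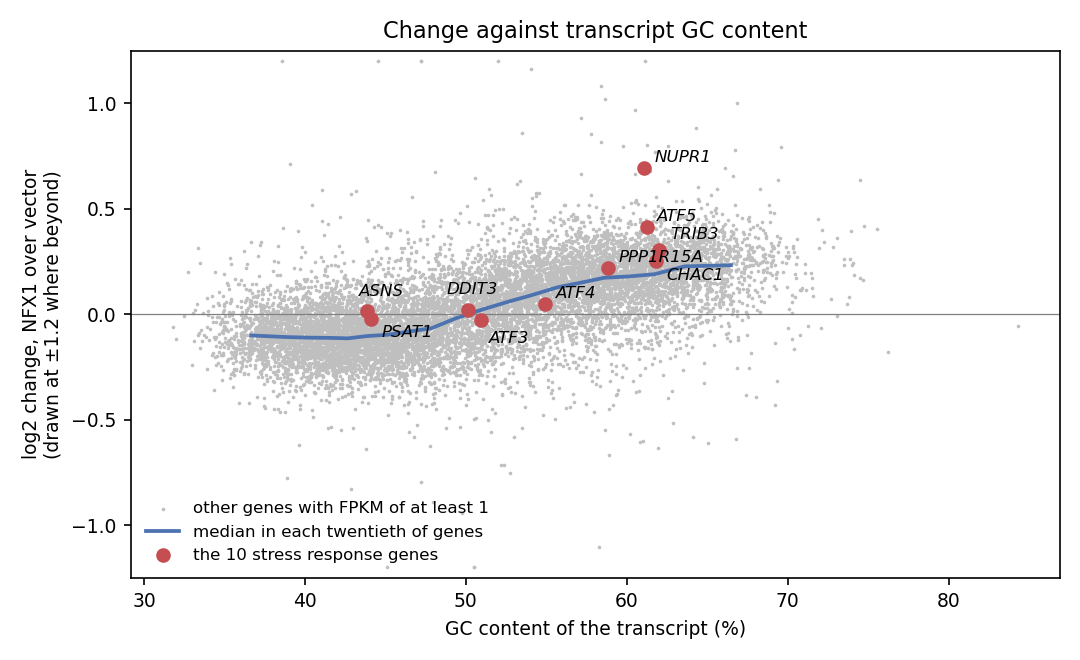
Log2 change (NFX1 over vector, FPKM + 1) against the GC content of the transcript for expressed genes (grey), with the median in each twentieth of genes (blue line) and the 10 stress response genes (red, named). TRIB3, CHAC1 and PPP1R15A lie near the line, NUPR1 at 0.69 lies well above it and ATF4 below it.

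The promoters show which of these genes carry known response elements near their start. RefSeq windows (GRCh38.p14) were matched for 9 of the 10 genes, all but NUPR1, whose promoter was not analysed here, and the 250 bases before each start were searched on both strands. Several genes have more than 1 window. A gene was counted if any of its windows matched, while the shares are of single windows, so the counts and shares are not like for like. ATF3, ASNS and ATF5 also have windows without any of the first 3 motifs below. The element bound by ATF4 with C/EBP factors, TGATGNAA, was found in 3 of the 9 genes, ASNS, CHAC1 and ATF3, and in 3.14% of all 35116 windows. The cyclic AMP response element TGACGTCA was found in PPP1R15A and in 1.65% of windows, and the AP-1 type element TGANTCA in ATF5 and DDIT3 and in 6.57% of windows. The matches of these motifs do not overlap in these windows, and they were picked for display after 6 others had also been searched. The looser forms TGACGNNA, in ATF4, ATF5 and PPP1R15A and in 6.55% of windows, and TGACG, in those 3 and ASNS and in 21.2% of windows, include the cyclic AMP response element. TTGCATCA, in CHAC1 and in 0.772% of windows, is 1 form of TGATGNAA read on the other strand, and GCATCA, in CHAC1 and ASNS and in 7.36% of windows, overlaps that form. CCAAT was found in ATF3, DDIT3, CHAC1 and PSAT1 and in 32.01% of windows, and TATAAA in ATF3, ATF4 and PPP1R15A and in 10.7% of windows. The 4 windows with either of the first 2 motifs are shown with the match in capitals. They are chr7:97872409-97872658 (minus strand) for ASNS, chr15:40953221-40953470 (plus strand) for CHAC1, chr1:212565157-212565406 (plus strand) for ATF3 and chr19:48872171-48872420 (plus strand) for PPP1R15A.
ASNS: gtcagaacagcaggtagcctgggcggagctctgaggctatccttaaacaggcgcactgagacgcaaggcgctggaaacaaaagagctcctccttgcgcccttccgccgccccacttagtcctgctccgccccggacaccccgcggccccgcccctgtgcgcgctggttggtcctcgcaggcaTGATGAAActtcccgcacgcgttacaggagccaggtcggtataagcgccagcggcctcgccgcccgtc
CHAC1: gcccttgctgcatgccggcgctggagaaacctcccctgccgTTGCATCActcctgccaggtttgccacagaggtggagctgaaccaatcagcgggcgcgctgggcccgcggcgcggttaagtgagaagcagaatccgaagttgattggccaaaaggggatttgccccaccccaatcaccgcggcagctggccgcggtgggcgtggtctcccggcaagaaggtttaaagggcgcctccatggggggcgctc
ATF3: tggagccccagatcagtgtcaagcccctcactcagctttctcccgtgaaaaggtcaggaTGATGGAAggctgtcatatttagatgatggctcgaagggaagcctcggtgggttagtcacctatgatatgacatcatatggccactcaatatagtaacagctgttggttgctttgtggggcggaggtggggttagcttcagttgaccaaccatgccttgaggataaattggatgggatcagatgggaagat
PPP1R15A: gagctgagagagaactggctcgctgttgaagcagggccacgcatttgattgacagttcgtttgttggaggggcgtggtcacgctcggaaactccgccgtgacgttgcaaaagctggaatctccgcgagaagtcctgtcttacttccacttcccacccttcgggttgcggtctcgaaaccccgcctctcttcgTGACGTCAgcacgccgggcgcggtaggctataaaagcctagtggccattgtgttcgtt
The match begins 68 bases before the start in ASNS, 209 in CHAC1, 191 in ATF3 and 58 in PPP1R15A, and in CHAC1 it is on the opposite strand. The 3 genes with TGATGNAA did not share a change: CHAC1 was at 0.25, ASNS at 0.02 and ATF3 at -0.03. A match is a description of letters and not of binding, and genes without one may carry the element elsewhere.

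Upstream of ATF4, mRNAs of the eIF2 kinases leaned to lower values in the NFX1 library. Of 7 genes of the kinases and their mitochondrial relay, 2 were higher and 5 lower (median -0.07). None was 25% higher, against 6.12% of all genes, or lower by the same factor, against 2.3%. The shares to set beside this list and those below are 52% of all expressed genes higher as deposited, and 50.6% with the trend subtracted. EIF2AK4 (GCN2, the sensor of amino acid shortage) had 9.36 FPKM in the NFX1 library and 11.5 FPKM in the vector library. EIF2AK3 (PERK, the sensor of the endoplasmic reticulum) had 5.38 and 6.25 FPKM, and EIF2AK2 (PKR, the sensor of viral RNA) 6.31 and 7.33 FPKM. KIAA0141, also called DELE1, which relays mitochondrial stress, had 14.2 FPKM in the NFX1 library and 12.4 FPKM in the vector library. With the trend subtracted the median of the 7 was -0.01.

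Of 13 genes for eIF2, its exchange factor eIF2B and the phosphatase subunits, 6 were higher and 7 lower, with a median of -0.08 that became 0.02 with the trend subtracted. The catalytic subunit PPP1CA had 411 FPKM in the NFX1 library and 340 FPKM in the vector library, a change of 0.27 that was 0.03 afterwards. The eIF2B subunits EIF2B4 and EIF2B5 had changes of 0.18 and 0.17.

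ATF4 partners and regulators were evenly split, with 7 of 12 higher and a median of 0.01. CEBPA, a liver-enriched C/EBP factor, had 21.7 FPKM in the NFX1 library and 16.1 FPKM in the vector library, a change of 0.41, or 0.21 with the trend subtracted. SESN2, which restrains mTORC1 under stress, had 35.0 and 29.3 FPKM, JDP2 had 5.27 and 4.73 FPKM, and BTRC, part of the ligase that degrades ATF4, 4.68 and 5.58 FPKM. Other factors of the ATF and CREB families had a median of -0.02 over 12 genes, with 5 higher, among them CREB3L1 (change 0.28) and ATF6B (0.20), and with CREB3L2 at -0.26 and ATF6 at -0.24. Of 10 expressed family members of the 10 genes, 3 were higher and 7 lower, beside 52% higher of all expressed genes. Their median of -0.12 became -0.05 with the trend subtracted. The TRIB3 paralogs TRIB1 and TRIB2 had changes of -0.20 and -0.23, opposite in sign to TRIB3 at 0.31, and ATF1 and ATF2 had -0.20 and -0.18. With the trend subtracted TRIB1 was at -0.20, TRIB2 at -0.15 and TRIB3 at 0.10. TRIB2 was near the 1 FPKM limit, at 0.954 FPKM in the NFX1 library and 1.29 FPKM in the vector library.

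**Figure D4:**
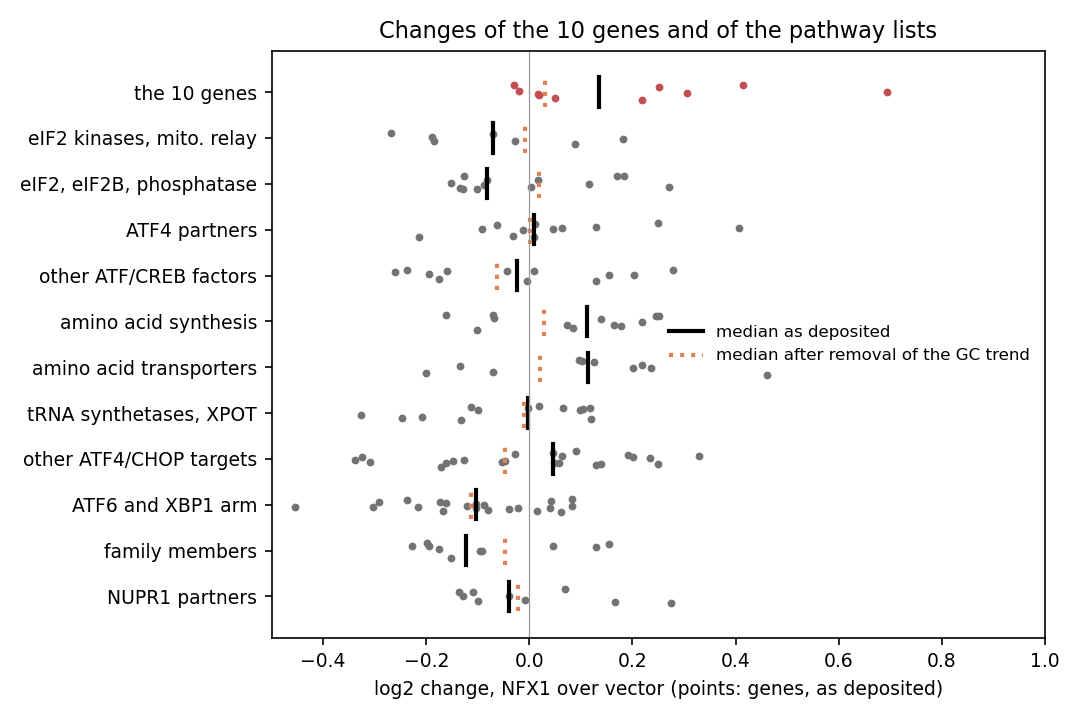
Log2 change (NFX1 over vector, FPKM + 1) of the 10 stress response genes (red) and of the expressed genes of each pathway list (grey). The black bar is the median as deposited. The dotted bar is the median with the trend on GC content, length and expression (GC trend in the key) subtracted. The medians of the 2 amino acid lists, 0.11 as deposited, shrink to 0.03 and 0.02, while that of the ATF6 and XBP1 list stays at -0.10 and -0.11.

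Further ATF4 targets in amino acid supply leaned to higher values in the NFX1 library as deposited, and the synthesis enzymes were evenly split with the trend subtracted. In amino acid synthesis and folate metabolism 8 of 12 were higher (median 0.11), with the serine hydroxymethyltransferases SHMT1 and SHMT2 at 0.25 each, the proline enzyme PYCR1 at 0.22 and PHGDH, the enzyme upstream of PSAT1, at 0.18. The folate enzyme MTHFD2 had the lowest change of the 12, -0.16. With the trend subtracted 6 were higher and 6 lower (median 0.03), with SHMT1 at 0.21, SHMT2 at 0.07, PYCR1 at -0.03 and PHGDH at -0.0048. Of the amino acid transporters 7 of 10 were higher (median 0.11), and SLC38A2 was at -0.20. SLC43A1, a carrier of large neutral amino acids, had 19.6 FPKM in the NFX1 library and 13.98 FPKM in the vector library, a change of 0.46, or 0.33 with the trend subtracted. SLC7A5 had 334 and 287 FPKM, SLC1A5 205 and 178 FPKM and SLC6A9 18.3 and 15.4 FPKM. With the trend subtracted their changes were 0.01, 0.00 and 0.07. Of the 10 transporters 7 were then higher and 3 lower (median 0.02), beside 50.6% higher of all genes.

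The tRNA synthetase list, which includes the tRNA exporter XPOT, had a median of 0.00 over 13 genes, with 6 higher and 7 lower. XPOT had 23.7 FPKM in the NFX1 library and 29.97 FPKM in the vector library, and NARS had 45.7 and 54.4 FPKM. The changes of LARS and TARS were -0.21 and -0.13. Other reported targets of ATF4 and CHOP were split, with 12 of 22 higher as deposited (median 0.05) and 7 of 22 with the trend subtracted (median -0.05). The apoptosis genes among them did not move one way. PMAIP1 (NOXA) had 2.03 FPKM in the NFX1 library and 1.41 FPKM in the vector library, and BCL2L11 (BIM) 1.43 and 2.08 FPKM. BBC3 (PUMA) had 9.36 FPKM in the NFX1 library and 8.07 FPKM in the vector library, and the death receptor TNFRSF10B 48.3 and 53.6 FPKM. The oxidase ERO1A, which is also a hypoxia target, had 180 FPKM in the NFX1 library and 226 FPKM in the vector library, and the lipoprotein receptor VLDLR had 2.57 and 3.43 FPKM.

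The other branches of the unfolded protein response lay on the low side. Of 21 genes of the ATF6 and XBP1 arm, 6 were higher and 15 lower (median -0.10), beside 52% higher of all expressed genes. With the trend subtracted 20 of the 21 were lower (median -0.11), beside 50.6% higher of all. Some of the 20 lay near 0, among them XBP1 at -0.0023 and DERL2 at -0.02. DNAJB9, a chaperone induced by XBP1, had the lowest change of the list, -0.45, or -0.37 with the trend subtracted. SEL1L, of the degradation complex, had 9.79 FPKM in the NFX1 library and 12.3 FPKM in the vector library, DNAJC3, a chaperone that also restrains PERK, 16.99 and 21.0 FPKM, and ATF6 itself 8.07 and 9.70 FPKM. ERN1, the sensor that splices XBP1, was the only gene of the list above 0 with the trend subtracted. No gene of this list was 1.5-fold lower, against 0.215% of all expressed genes, and 1 of the 21, DNAJB9, was lower by the factor of the 25% limit, against 2.3% of all. This list overlaps a broader list of the same response whose low median in these libraries was already known, and adds no independent evidence of its direction.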

How the data were processed

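RNA of 1 NFX1 culture and 1 vector culture was compared, grouped by the genotype label. TopHat2 2.1.0 and Cufflinks 2.2.1 with the hg19 genome are named in the submitters' processing notes; annotation, settings, strand and library scaling are not given in the sources used here. Per the file headers, the authors' table holds FPKM for each library, and the authors' log2 fold change, test statistic (a score), p-value and q-value.

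Rows without a symbol (1651) or with several symbols (492) of 28658 were left out, and a repeated symbol was represented by its row with the highest mean. The genes and lists were chosen with earlier results of these data known. The text names all 10 genes, NFX1, and up to 4 expressed genes of each list by size of change, beside paralogs, markers, genes sharing a row's interval, and MTHFD2, SLC38A2, BBC3 and TNFRSF10B, that were chosen after their values were seen. The pseudocount was 1 FPKM, and the limit was 1.5-fold.

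Depth was estimated from 363 olfactory receptor genes of 850 to 1100 bases. Those above 0, 10 in the NFX1 library and 9 in the vector library, lay within 0.000263 of whole fragments once 274 bases were taken off. Fragments per gene then used the median length of GENCODE transcripts that have a RefSeq match and fit within the row's interval. A wrong length changes the width of an interval and not the fold. The trend was fitted with cubic splines (5 knots) on genes within 2-fold and covers 98.2% of the expressed genes. The fit was tested on simulated data with a straight slope on GC content only. Its removal of trends on length and expression was not tested. The intervals were tested on simulated counts at a single setting. Starts count from 1. Scripts ran in Python 3.11.15 with scikit-learn 1.9.0, scipy 1.17.1, pandas 2.3.3, numpy 2.4.6 and matplotlib 3.10.9. Some items are not reported here.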

Additional observations from a re-analysis of the deposited data

How the results depend on the processing

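The median change of the 10 genes, 0.13, stayed between 0.06 and 0.14 with pseudocounts of 0.1 and 5 FPKM and the scalings. Summed rows and the other filters could not move it, because each of the 10 genes has 1 row and passes 5 FPKM. The median was 0.030 after removal of the trend on GC content, length and expression. It was 0.050 without NUPR1, an alternative added after the data had been seen. The 1 gene at least 1.5-fold higher became 2 at a limit of 25%, which 6.12% of all genes passed, 0 at 2-fold and 0 after removal of the trend. Of 60 recomputed changes of single genes, 49 moved by less than their counting interval, among them 10 with summed rows that could not move. The other 11 came from the trend (6) and from upper quartile scaling (5), which lowered every change by about 0.07 and turned ATF4, DDIT3 and ASNS to -0.02, -0.05 and -0.06. Of 88 recomputed list medians, 79 stayed within the typical counting interval of a single gene of the list (the median of the bounds). This is not an interval of a median, so staying within it says little. The 11 medians with summed rows did not change at all. Upper quartile scaling (5) and the trend (4) gave those that moved further. No paired analysis was possible because each group has 1 library, and for the same reason no replicate could be left out. Counting error limits ATF3 and NUPR1 most, which had the widest intervals of the 10.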

Other observations

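The genes beside NUPR1 also had higher values in the NFX1 library. Within 100000 bases on either side of its row, 2 other rows were expressed. CLN3, a lysosomal membrane protein gene, had 60.8 FPKM in the NFX1 library and 50.4 FPKM in the vector library, and CCDC101, a subunit of the SAGA histone acetyltransferase complex, had 17.9 and 12.99 FPKM. Their changes of 0.27 and 0.44 were 0.07 and 0.27 after removal of the trend, and their transcripts had GC contents of 59.4% and 58.5%, close to that of NUPR1. Whether position, composition or neither has a part in this was not tested.

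Among secreted stress markers, named after their values were seen, GDF15 stood at 4222 FPKM in the NFX1 library and 4058 FPKM in the vector library. STC2 had 254 and 277 FPKM and VEGFA 58.4 and 65.8 FPKM, while FGF21 was near 0 in both, at 0.0389 and 0.134 FPKM. Of the C/EBP genes, CEBPB had 261 FPKM in the NFX1 library and 279 FPKM in the vector library and CEBPD 143 and 150 FPKM. Their changes of -0.09 and -0.06 became -0.36 and -0.32 after removal of the trend. CEBPB and CEBPD then lay further below 0 than any of the 10 genes, of which ATF4 was lowest at -0.12. The C/EBP genes did not move together, as CEBPA, with a GC content of 65.9%, was then at 0.21 and CEBPG at 0.09.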
